A study of Mus musculus with 8 samples.

Results

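The respiratory chain subunits beyond complex I are the proteins of complex II, complex III and complex IV, cytochrome c, and the mitochondrially encoded subunits of these complexes and of the ATP synthase. A list of 32 genes was taken by symbol, of which 26 are nuclear and 6 are encoded by mitochondrial DNA, out of 53379 genes in the count table. They were measured by bulk RNA sequencing of the cingulate cortex of 4 WT and 4 Mvp KO samples. The mice were males on a C57BL/6 background, WT being *Mvp*+/+ and Mvp KO being *Mvp*-/-, with no treatment, and their age is not given in the sources used here. In the Mvp KO line, which came from a single gene-trap clone, a β-Geo cassette with a polyadenylation site sits in the first intron of *Mvp*, the gene of the major vault protein. The question was which transcripts differ when *Mvp* is lost. The labels number the samples of a genotype but do not say more about their origin, so p-values measure the spread between these samples.

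Complex II (succinate dehydrogenase) and complex I feed electrons to ubiquinone, complex III passes them from ubiquinone to cytochrome c, and complex IV (cytochrome c oxidase) hands them to oxygen. Complex III and complex IV pump protons across the inner membrane, and the ATP synthase uses the proton gradient to make ATP. Complex II is made from nuclear genes alone, whereas complex III takes cytochrome b and complex IV takes its 3 catalytic core subunits from mitochondrial DNA, so that 2 genomes have to supply parts of the same complexes. Cortex has a high demand for ATP, since neurons spend it on ion pumping.

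Of the 32 members, 28 passed the filter on low counts and none of these 28 passed the test between Mvp KO and WT. The other 4, all mitochondrially encoded, had no usable counts in any sample, whereas *mt-Cytb* and *mt-Co1* were by far the most abundant of the counted members. No member passed an adjusted p of 0.05, against 0.00591% of the 16914 genes tested, which is *Mvp* alone. For 28 of 28 counted members, the 95% interval stayed inside 1.5-fold in both directions, against 64.5% of all genes tested. The median standard error (SE) was 0.092 for the members and 0.14 for all genes tested, which include genes of lower counts. A share over genes of like level was not taken, so this contrast does not set the members apart. Of the 26 nuclear members 24, and both counted mitochondrial members, had a log2 fold change below 0, against 8457 of the 16914 genes tested. However, members of a list rise and fall together from sample to sample and are not replicates.

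The table held between 28456504 and 42854368 counts per sample. *Mvp* itself was between 5.49 and 7.89 CPM (counts per 1e+06 counts, scaled by TMM factors) in WT and between 1.44 and 2.13 CPM in Mvp KO, which is -2.06 as a log2 fold change (SE 0.186; edgeR, adjusted p = 0.0162). WT replicate 4 stood apart from the other 7 samples, at 71.5 on the first principal component against -20.4 to -2.8. In it the summed CPM of 6 interneuron markers was 1760, against 824 to 1010 elsewhere. *Gad1*, *Gad2*, *Slc32a1* and *Sst* were highest in this sample, whereas *Pvalb* lay inside the range of the others and *Vip* was lowest. For 6 striatal neuron markers the sum in WT replicate 4 was 167, against 58.0 to 82.4 elsewhere. These 6 did not go together between genotypes. Their log2 fold changes ran from -1.482 to 0.575, with 2 above 0 and 4 below, so the sum does not speak for each marker. The sum of 6 oligodendrocyte markers was 1290 to 2720 CPM in WT and 1490 to 5520 CPM in Mvp KO, and was highest in Mvp KO replicate 1 and Mvp KO replicate 2. The defining cortical markers *Slc17a7* and *Camk2a* were high in both genotypes, at a mean of 1839 and 3124 CPM in WT. In bulk tissue, fewer cells of a type and less RNA per cell cannot be told apart.

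The mitochondrially encoded members divided into counted and uncounted genes. *mt-Co2* and *mt-Co3*, which encode the remaining catalytic core of complex IV, and *mt-Atp8*, a small membrane subunit of the ATP synthase, had 0 counts in each of the 8 samples. *mt-Atp6*, which forms part of the proton channel of the ATP synthase, had 1 count in all, in WT replicate 4. By contrast, *mt-Co1*, the catalytic subunit that holds the oxygen-binding site of complex IV, had between 226751 and 394949 counts per sample, and *mt-Cytb*, cytochrome b of complex III, between 200786 and 366349. A count of 0 allows up to 3 counts, or 0.0700 to 0.105 CPM depending on the sample, and this limit covers counting error only. No fold change can be given for these 4 genes, and 0 counts in this table do not show that the transcripts were missing from the tissue.

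Of the 4 uncounted genes, *mt-Co2*, *mt-Co3* and *mt-Atp6* hold sequence that is also annotated elsewhere in the genome. The reads were single ends of 50 bases at most, so each transcript was taken apart into all its stretches of 50 bases, and each stretch was looked up in the other annotated transcripts of GRCm38 (mm10). *mt-Co2* (chrM:7013-7696, plus strand) shared 635 of its 635 stretches. Its copy *Gm28661* (chr1:24614885-24615565) had 0 differences over 681 bases. *mt-Co3* shared 99.9% of its stretches, and its copy *Gm28437* had 0 differences over 783 bases. *mt-Atp6* shared 99.5%, and its copy *Gm10925* had 0 differences over 678 bases. *mt-Cytb* shared 0% and *mt-Co1* 51.1%. The beginning of *mt-Co2* and the same positions of *Gm28661* are shown because no read from within them could be placed at one locus alone. Capitals, where there are any, mark bases that differ.
mt-Co2, bases 1 to 60: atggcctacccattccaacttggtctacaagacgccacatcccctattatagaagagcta
Gm28661, the same bases: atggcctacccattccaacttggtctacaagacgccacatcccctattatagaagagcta
*mt-Co1* (chrM:5328-6872, plus strand) differed. *Gm29216* matched its last 492 bases with 6 differences, and these 6 lie at the start of the match, in the bases shown here with the differences in capitals.
mt-Co1, bases 1054 to 1113: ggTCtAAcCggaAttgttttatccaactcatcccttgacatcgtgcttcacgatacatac
Gm29216, the same bases: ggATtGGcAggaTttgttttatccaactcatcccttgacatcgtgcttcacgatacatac
A second copy of *mt-Co1*, *Gm13340* on chromosome 2, differed at 37 of 1545 bases. The 731 stretches of *mt-Co1* that no other annotated transcript holds are the part of the gene where a read has only 1 annotated place.

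The same division ran through the mitochondrially encoded complex I subunits, which were read for comparison. *mt-Nd3* and *mt-Nd4l* shared 98.0% and 98.8% of their stretches and had 1 count and 0 counts in all. *mt-Nd4* shared 62.2% and had 85137 to 160353 counts per sample, and *mt-Nd1*, *mt-Nd2*, *mt-Nd5* and *mt-Nd6* shared between 0% and 8.2% and were counted in every sample. *mt-Atp8* was the exception among these genes, with 0% of its 155 stretches in another annotated transcript and 0 counts. It lies between *mt-Co2* and *mt-Atp6*, which are 230 bases apart, and 21.08% of its bases overlap *mt-Atp6*. On chromosome 1, the copies *Gm28661* and *Gm10925* are 233 bases apart, and no gene is annotated between them. The chromosome 1 sequence between them was not read here, since no genome sequence was used. The copies themselves had few counts per sample, between 2 and 10 for *Gm28661*, 0 and 1 for *Gm28437*, and 0 and 16 for *Gm10925*. A second copy of *mt-Co2*, *Gm13341* on chromosome 2, held 35.3% of its stretches and had between 33 and 65 counts. *Gm13340*, a copy of the counted gene *mt-Co1*, had between 81 and 210. By default htseq-count sets aside a read that aligned to more than 1 place, but the setting used for these counts is not given in the sources used here, and its part in the 0 counts was not tested.

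**Figure D1:**
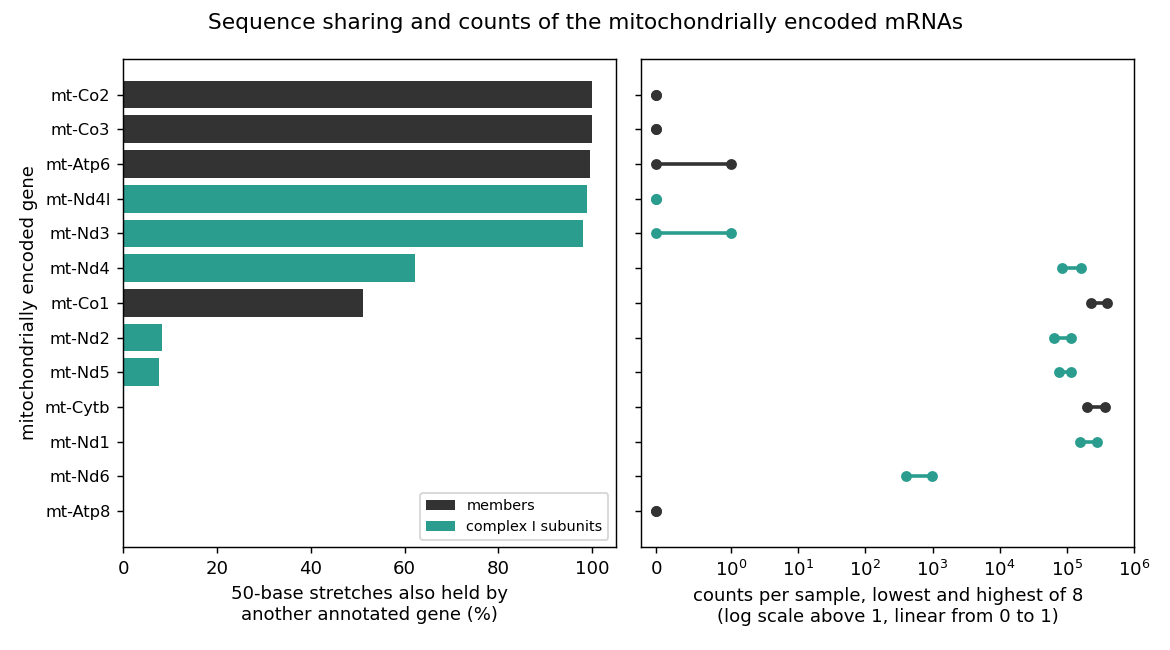
Left, the share of 50-base stretches of each mitochondrially encoded mRNA that another annotated gene also holds (%), for the 6 members and, for comparison, the complex I subunits. Right, the lowest and the highest count per sample over 8 samples on a scale that is logarithmic above 1. mt-Co2, mt-Co3 and mt-Atp6 share at least 99.5% of their stretches and reach at most 1 count, and mt-Atp8 is at 0 with no shared stretch.

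Among the 26 nuclear members, 14 shared no stretch with another annotated gene and 12 shared some. *Cox7c*, a small subunit of complex IV, shared 53.0%, *Uqcrb*, which contacts cytochrome b in complex III, 43.2%, *Cycs*, cytochrome c, 28.5%, and *Cox5b*, a zinc-binding subunit of complex IV, 25.9%. *Cox7a2l* shared 19.8%, *Cox6c* 13.9%, *Cox6a1* 12.3% and *Uqcr11* 10.9%. The remaining 4 with any sharing, namely *Uqcrh*, *Cox5a*, *Cox7b* and *Sdhc*, shared 7.8%, 3.4%, 0.6% and 0.1%. The coding part of *Cox7c* was identical to the pseudogene *Gm12338* over 189 bases and differed from *Gm10012* at 2. Its start is shown because *Cox7c* was the lowest of the nuclear members per kb of exonic length, and the capital marks the base at which *Cox7c* and *Gm10012* differ, where *Gm12338* is the same as *Cox7c*.
Cox7c, transcript bases 230 to 289: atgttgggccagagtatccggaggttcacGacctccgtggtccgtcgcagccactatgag
Gm12338, the same bases: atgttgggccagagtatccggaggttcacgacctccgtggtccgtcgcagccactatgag
Gm10012, the same bases: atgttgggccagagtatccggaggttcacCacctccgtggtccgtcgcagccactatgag
Another form of overlap touched 5 nuclear members on the opposite strand, up to 19.75% of the exonic bases of *Uqcrc2* (*Pdzd9*). The library kit keeps the strand, but whether the counting used it is not given in the sources used here.

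Levels between genes were compared as CPM per kb of exonic length, the union of all annotated exons. In WT, *mt-Cytb* was at 7252 ± 283 CPM per kb and *mt-Co1* at 5739 ± 139 CPM per kb (SD, n = 4). By this length the highest nuclear member, *Cox8a*, was at 311.1 ± 24.8 CPM per kb, so that *mt-Cytb* stood 23.3 times and *mt-Co1* 18.4 times above it. Against the median nuclear member, at 62.2 CPM per kb, the ratios were 117 and 92.3. These 2 values of the mitochondrial genes come from a library of polyadenylated RNA, in which mitochondrial transcripts carry short tails.

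Nuclear members covered an 84.0-fold range. After *Cox8a* came *Cox4i1* at 260.1 ± 23.4, *Cox6a1* at 208.0 ± 14.5 and *Cox6b1* at 193 ± 15.4 CPM per kb (SD, n = 4), all subunits of complex IV, and within this sequence *Cox6a1* and *Cox6b1* did not differ beyond their spread. *Sdha*, the flavoprotein of complex II that oxidises succinate, was the next at 122.9 ± 15.5 CPM per kb. The 4 subunits of complex II stand in equal numbers in the protein, yet in WT *Sdhd* was at 68.0, *Sdhb* at 41.0 and *Sdhc* at 17.6 CPM per kb of exonic length. In complex III the core protein *Uqcrc2* was at 91.6 and the Rieske iron-sulphur protein *Uqcrfs1* at 89.5 CPM per kb, whose spreads overlapped, and *Uqcrc1*, the other core protein, was at 46.1 CPM per kb. At the low end were *Uqcrb* at 16.8, *Cycs* at 4.12 ± 0.463 and *Cox7c* at 3.70 ± 0.313 CPM per kb.

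The order depended on the length used, and several of these contrasts turned or shrank with the stretches of 1 transcript as length. *Cox4i1*, at 563 CPM per kb of 1 transcript, was then the highest nuclear member, above *Cox8a* at 384, and *mt-Cytb* was at 7576. *Sdhb*, at 84.1, was above *Sdhd* at 70.9, with *Sdhc* at 18.3. *Uqcrc1*, at 118.9, was above *Uqcrfs1* at 92.9 and close to *Uqcrc2* at 126.5. *Cycs*, at 4.57, was the lowest, below *Cox7c* at 8.53. Per kb of unshared stretches *Cox7c* was at 18.1 CPM and *Cycs* at 6.39. *Cox6c* moved from 27.1 CPM per kb of exonic length to 140 per kb of 1 transcript and 163 per kb of its unshared stretches. *mt-Co1* moved from 5739 CPM per kb to 12130 per kb of unshared stretches, above *mt-Cytb* at 7576. The median over nuclear members was 104 CPM per kb with either of these lengths. The 8 nuclear members that shared at least 10% of their stretches had a median of 24.3 CPM per kb of exonic length, and the other 18 nuclear members 75.1. What part sharing has in these levels was not tested.

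**Figure D2:**
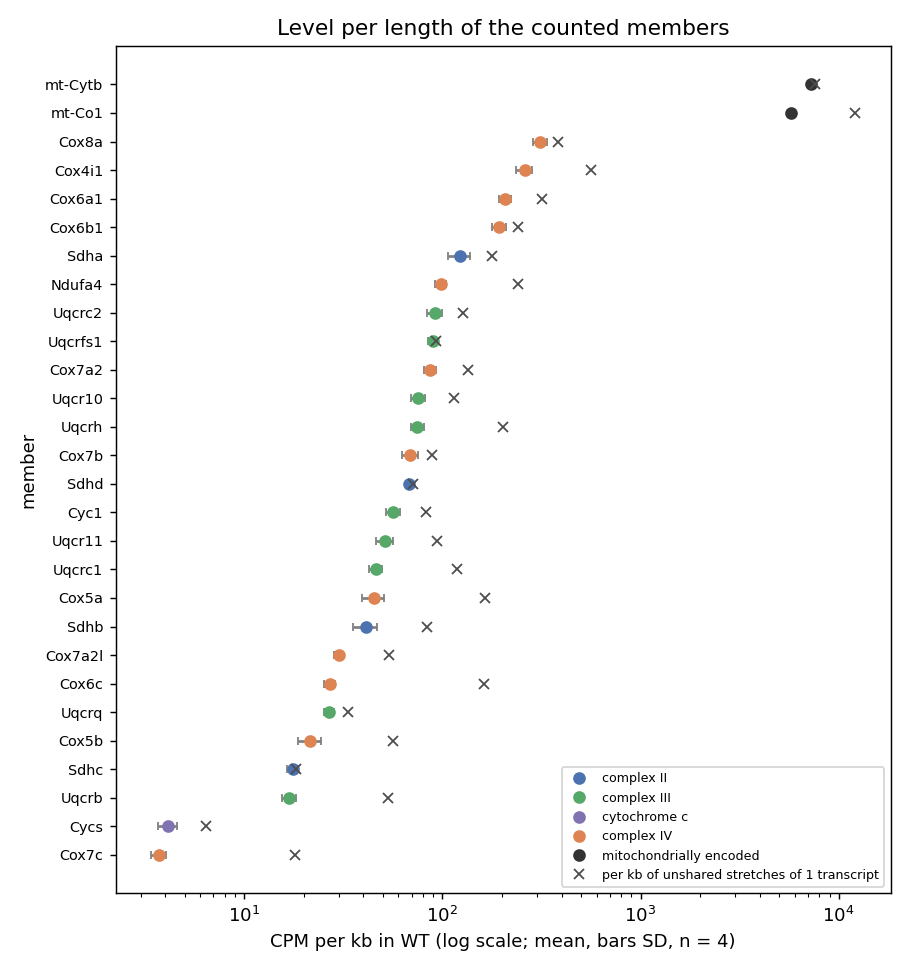
CPM per kb of exonic length in WT on a log scale, as the mean with SD bars (n = 4), for the 28 counted members, coloured by complex. Crosses give CPM per kb of the stretches of 1 transcript that no other annotated gene holds. mt-Cytb and mt-Co1 stand above every nuclear member, and Cycs and Cox7c are the lowest by exonic length.

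In complex II no subunit passed the test. *Sdha* had the lowest p of the complex and was at 471, 471, 483 and 603 CPM in WT replicates 1 to 4 and at 450, 494, 497 and 453 CPM in Mvp KO replicates 1 to 4. The groups overlapped, and WT replicate 4 was above all other samples. The log2 fold change was -0.10 (SE 0.095, 95% interval -0.31 to 0.12; edgeR, adjusted p = 0.969). The log2 fold changes of *Sdhb*, the iron-sulphur subunit, and *Sdhc*, a membrane anchor that helps bind ubiquinone, were -0.07 and -0.07, and that of *Sdhd*, the other anchor, was 0.01. Without WT replicate 4 the value of *Sdhb* turned to 0.03 and that of *Sdhd* to -0.01, so neither has a direction.

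In complex III none of the 9 nuclear subunits passed the test, and all 9 had a log2 fold change below 0, with a median of -0.09. *Uqcr11*, one of the small subunits without a redox centre, had the lowest p. It was at 28.4, 35.4, 35.3 and 33.2 CPM in WT replicates 1 to 4 and at 34.2, 28.3, 29.0 and 25.3 CPM in Mvp KO replicates 1 to 4. Here WT replicate 1 lay among the Mvp KO samples and Mvp KO replicate 1 among the WT samples. The log2 fold change of *Uqcr11* was -0.18 (SE 0.109, 95% interval -0.42 to 0.07; edgeR, adjusted p = 0.969). *Uqcr10* was at -0.19 and *Uqcrh*, the hinge protein that helps cytochrome c dock to cytochrome c1, at -0.16. *Cyc1*, cytochrome c1, was at -0.08, *Uqcrfs1* at -0.04, *Uqcrc1* at -0.03 and *Uqcrc2* at -0.09. *Uqcrq* was at -0.10 and *Uqcrb* at -0.03. *Uqcrb*, *Uqcrc1* and *Uqcrfs1* turned above 0 without Mvp KO replicate 4, to 0.03, 0.02 and 0.01, and without WT replicate 4 *Uqcrc1* was at 0.02.

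*Cycs*, which carries electrons from complex III to complex IV and also takes part in apoptosis when released, was at 12.92, 16.30, 13.02 and 13.91 CPM in WT replicates 1 to 4. In Mvp KO replicates 1 to 4 it was at 15.42, 17.03, 13.34 and 12 CPM. Both the highest and the lowest sample were Mvp KO samples. The log2 fold change was 0.04 (SE 0.131, 95% interval -0.25 to 0.34; edgeR, adjusted p = 0.978), and -0.05 without Mvp KO replicate 2.

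In complex IV the 12 nuclear subunits had a median log2 fold change of -0.12 and all lay below 0, and none passed the test. *Cox6b1*, a subunit on the outer face of the complex where cytochrome c docks, had the lowest p of all members. It was at 121, 143, 140 and 144 CPM in WT replicates 1 to 4 and at 131, 119, 114 and 107 CPM in Mvp KO replicates 1 to 4. WT replicates 2, 3 and 4 were above every Mvp KO sample, but WT replicate 1 was below Mvp KO replicate 1. The log2 fold change was -0.22 (SE 0.085, 95% interval -0.41 to -0.03; edgeR, adjusted p = 0.969). *Cox4i1*, which binds ATP and ADP and is the largest nuclear subunit, was at -0.17, *Cox5a* at -0.16, *Cox5b* at -0.16, *Cox8a* at -0.13, *Ndufa4*, a subunit once counted to complex I, at -0.12, and *Cox7a2* at -0.12. *Cox7b* was at -0.09, *Cox6a1* at -0.05, *Cox7c* at -0.04, *Cox6c* at -0.03 and *Cox7a2l* at -0.01. The last 2 turned above 0 without Mvp KO replicate 4, to 0.04 and 0.03, and they also did so when either WT replicate 2 or Mvp KO replicate 3 was left out.

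Over all counted members, 2 of 28 had an unadjusted p under 0.05, namely *Cox6b1* and *mt-Cytb*, against 1.56% of all genes tested. DESeq2's Wald test called 0 members, against 0.00651% of the genes it tested, and it gave an unadjusted p under 0.05 for 2 members. One of the 28, *mt-Co1*, had WT and Mvp KO samples that did not overlap, against 1.52% of all genes tested. These counts of 1 and 2 are too small to read as a result about the members.

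**Figure D3:**
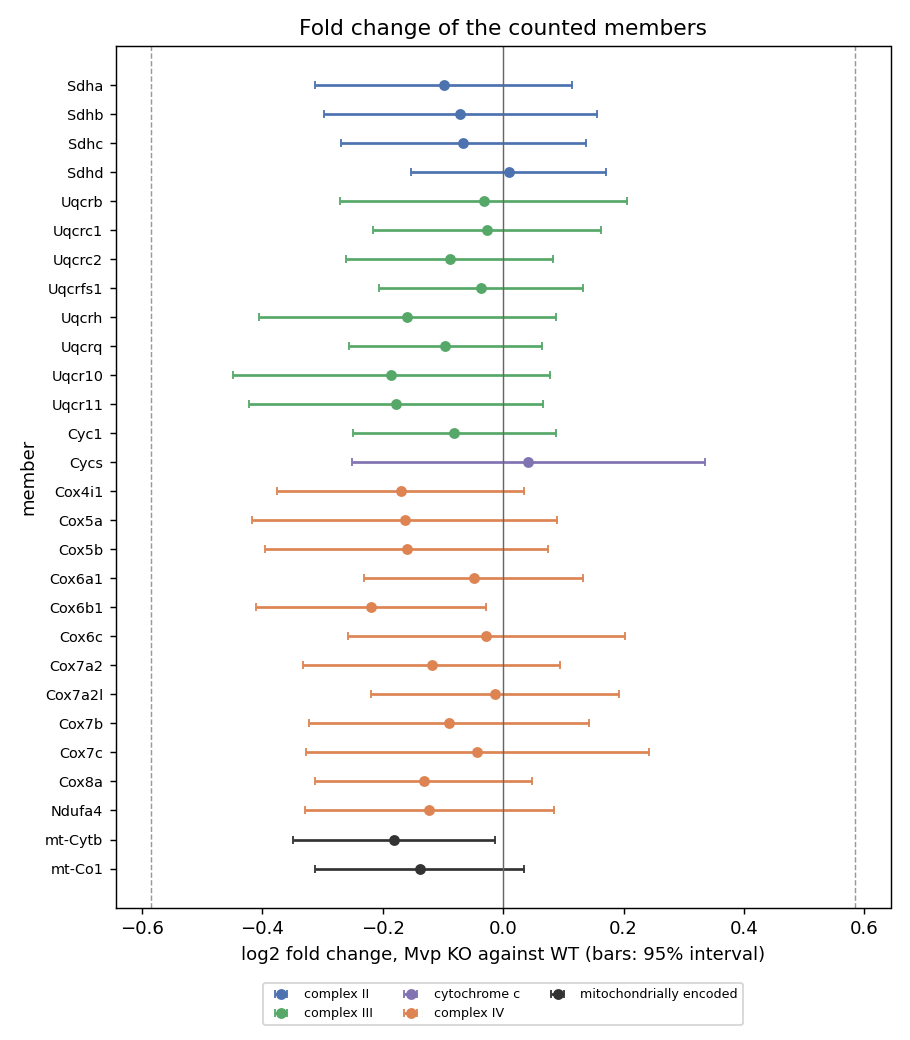
Log2 fold change of each of the 28 counted members in Mvp KO against WT, with 95% intervals from the edgeR fit, coloured by complex; dashed lines mark 1.5-fold. All intervals lie between the dashed lines, and those of Cox6b1 and mt-Cytb do not reach 0.

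*mt-Cytb* was at 8352, 8436, 7828 and 8567 CPM in WT replicates 1 to 4. In Mvp KO replicates 1 to 4 it was at 6884, 7452, 7863 and 7047 CPM. The groups overlapped only through WT replicate 3, which was below Mvp KO replicate 3. The log2 fold change was -0.18 (SE 0.075, 95% interval -0.35 to -0.01; edgeR, adjusted p = 0.969).

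*mt-Co1* was at 9001, 9095, 8665 and 8704 CPM in WT replicates 1 to 4. In Mvp KO replicates 1 to 4 it was at 7261, 8377, 8628 and 7958 CPM. All 4 Mvp KO samples were below all 4 WT samples, with 37 CPM between the nearest. The log2 fold change was -0.14 (SE 0.077, 95% interval -0.31 to 0.04; edgeR, adjusted p = 0.969), which does not pass.

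The rule of the list asked for nuclear against mitochondrial genes. Both kinds had a median below 0, at -0.09 for the 26 nuclear members and -0.16 for the 2 counted mitochondrial members, beside 0.00 for all genes tested. The mean of log2 (CPM + 0.5) over the nuclear members was 6.30 ± 0.086 in WT and 6.21 ± 0.122 in Mvp KO (SD, n = 4). Over *mt-Cytb* and *mt-Co1* it was 13.07 ± 0.040 in WT and 12.90 ± 0.096 in Mvp KO (SD, n = 4). The mitochondrial minus nuclear mean was 6.90, 6.73, 6.69 and 6.73 in WT replicates 1 to 4. It was 6.46, 6.67, 6.83 and 6.82 in Mvp KO replicates 1 to 4. The difference of this value between genotypes was -0.07 (Mvp KO minus WT), smaller than the SD within Mvp KO of 0.174, and it was 0.01 without Mvp KO replicate 1. Thus no shift between the 2 genomes could be told from the spread between samples.

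The 2 kinds of genes did not move as one from sample to sample. Mvp KO replicate 1 had the lowest values of *mt-Cytb* and *mt-Co1*, while 20 of 26 nuclear members lay above the median of the other 7 samples in it. In Mvp KO replicate 4, 0 of 26 nuclear members lay above the median of the other 7 samples, and 23 of the 26 had their lowest value there. It held 28456504 counts, the fewest of the 8 samples. WT replicate 1, at 1 of 26, and Mvp KO replicate 3, at 3 of 26, were low as well, whereas WT replicate 2 was high, at 25 of 26. WT replicates 3 and 4 were at 21 of 26 each, and Mvp KO replicate 2 was at 13 of 26. A high and a low sample thus occurred in each genotype, but the high samples were mostly WT and the low ones mostly Mvp KO. Without Mvp KO replicate 4, the nuclear members below 0 fell to 19 of 26 and their median was -0.06. In WT replicate 4, which stood apart in the whole table, 11 of 26 nuclear members had their highest value, led by *Sdha* at 0.35, *Sdhb* at 0.35 and *Cox4i1* at 0.30 above the median of the others (log2), and *Cox7c* was at -0.15. Without WT replicate 4 the nuclear median was -0.07 and the mitochondrial median -0.15. In that fit 2 members had an unadjusted p under 0.05 in edgeR, against 1.34% of the genes then tested. This count changed with the sample left out. It was 4 without Mvp KO replicate 1, against 1.5%, and 3 without WT replicate 1, against 2.75%. Leaving out WT replicate 3 or Mvp KO replicate 3 gave 1, against 2.68% and 1.53%. Leaving out WT replicate 2, Mvp KO replicate 2 or Mvp KO replicate 4 gave 0, against 1.97%, 1.13% and 1.74%. The spread of the nuclear members within a genotype, as the median SD of log2 (CPM + 0.5), was 0.132, beside 0.140 for all genes of at least 10 CPM, and without WT replicate 4 the values were 0.128 and 0.103. Mvp KO replicate 1, lowest in *mt-Cytb* and *mt-Co1*, was highest in the oligodendrocyte markers, at 5520 CPM, and lowest in the 6 markers of cortical excitatory neurons, at 4370 CPM. The part of cell makeup in these values was not tested.

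**Figure D4:**
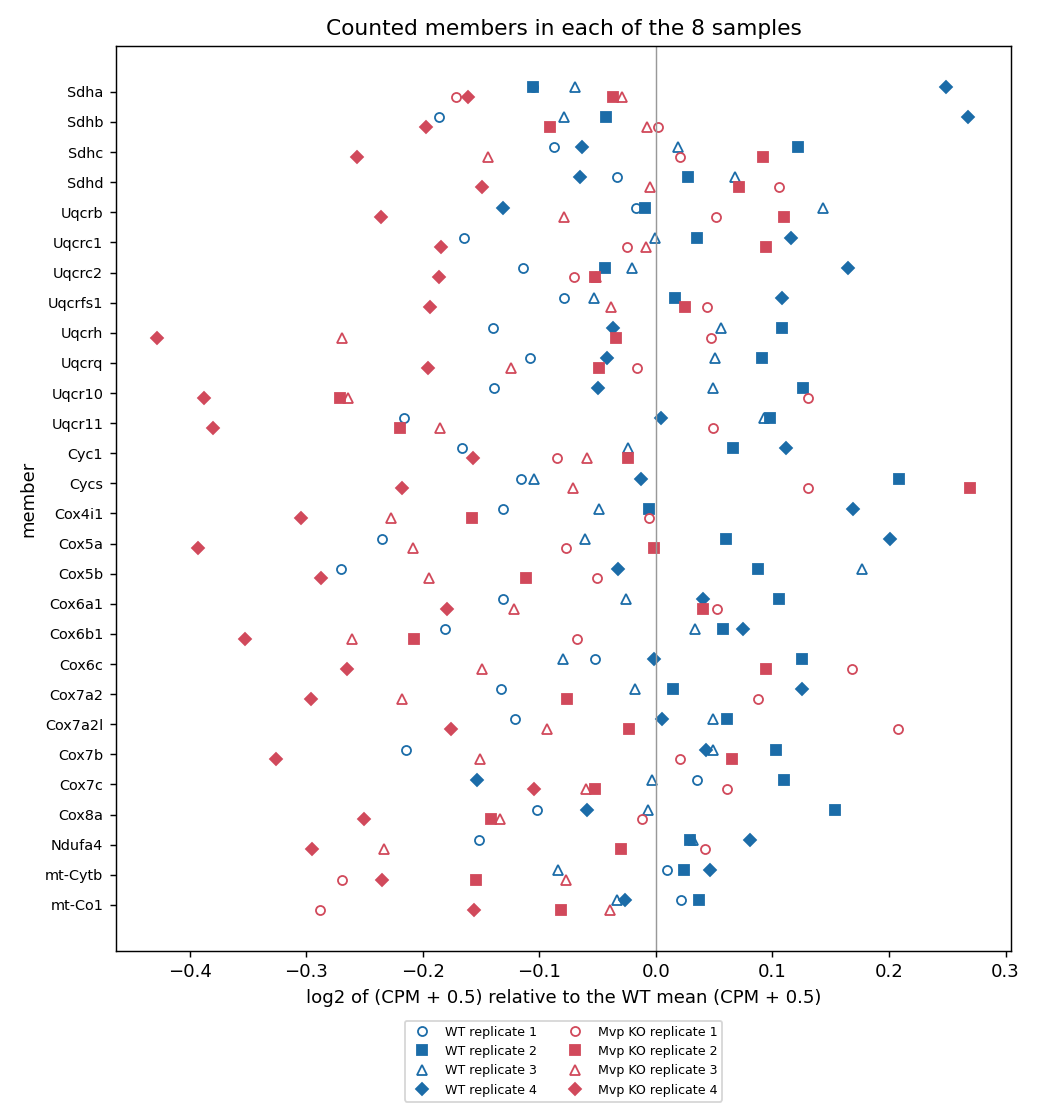
Log2 of (CPM + 0.5) of each counted member in each sample, relative to the WT mean of that member; blue for WT and red for Mvp KO, with 1 symbol per sample. Most nuclear members have their lowest point in Mvp KO replicate 4, and mt-Cytb and mt-Co1 have theirs in Mvp KO replicate 1.

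**Figure D5:**
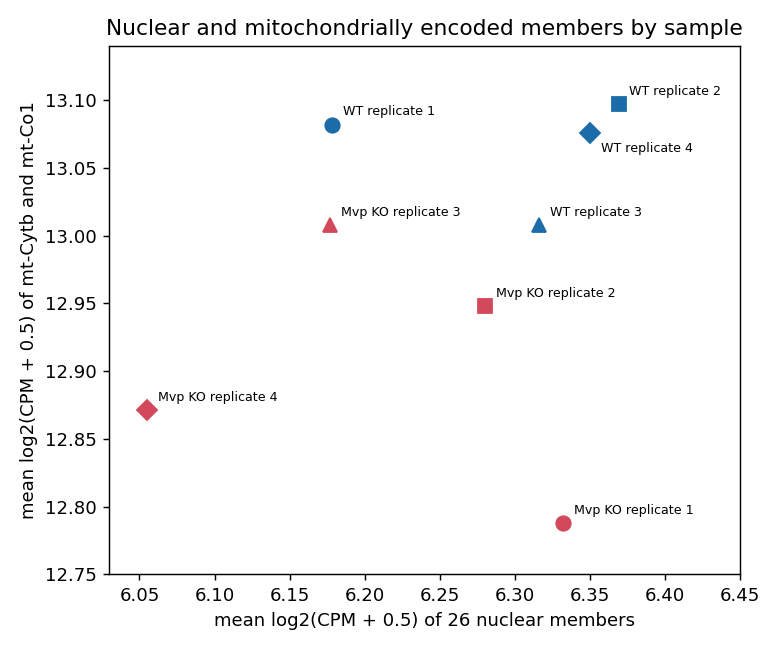
Mean log2 (CPM + 0.5) of the 26 nuclear members against that of mt-Cytb and mt-Co1, with 1 point per sample, blue for WT and red for Mvp KO. Mvp KO replicate 4 is lowest on the nuclear axis, at 6.05, and Mvp KO replicate 1 lowest on the mitochondrial axis, at 12.79.

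As a share of all counts, the 6 mitochondrially encoded members took 1.69% ± 0.0996 in WT and 1.56% ± 0.0777 in Mvp KO (SD, n = 4), through *mt-Cytb* and *mt-Co1* alone apart from the single count of *mt-Atp6*. The 26 nuclear members together took 0.305% ± 0.0134 in WT and 0.295% ± 0.0260 in Mvp KO (SD, n = 4). The share of all genes of the mitochondrial genome, as far as they were counted, lay between 2.77% and 3.36% in the 8 samples. To it *mt-Co2*, *mt-Co3*, *mt-Atp6*, *mt-Atp8*, *mt-Nd3* and *mt-Nd4l* added at most 1 count each, and ribosomal reads had been removed before counting.

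Genes that work beside the members did not pass the test either. Of 17 nuclear genes of the ATP synthase, 0 passed, 14 had a log2 fold change below 0, and the median was -0.08, with *Atp5k* lowest at -0.34 (edgeR, adjusted p = 0.969) and *Usmg5* highest at 0.34. Of the 5 counted mitochondrial complex I subunits, 0 passed and all 5 were below 0, with a median of -0.20, *mt-Nd6* lowest at -0.43 and *mt-Nd1* highest at -0.15. The value of *mt-Nd6* rests on 400 to 981 counts per sample, and it was at 31.15 CPM in WT replicate 4 against 14.04 to 21.28 elsewhere. These 5 values are read from the same 8 samples as those of *mt-Cytb* and *mt-Co1*. Most mitochondrial genes are also copied from a shared precursor transcript, so the values are not independent evidence. Of 32 tested assembly factors of complexes II to IV, 0 passed, with a median of -0.01. *Cox15*, needed to make the haem of complex IV, was lowest at -0.31, and *Sdhaf3*, an assembly factor of complex II, highest at 0.16. Of 21 genes that copy, process or transcribe mitochondrial DNA, 0 passed, with a median of 0.02, from -0.17 for *Lrpprc*, which stabilises mitochondrial mRNAs, to 0.57 for *Polg2*, an accessory subunit of the mitochondrial DNA polymerase (edgeR, adjusted p = 0.969). Of 9 nuclear regulators of respiratory genes, 0 passed, with a median of 0.03, between -0.07 for *Esrra* and 0.07 for *Sp1*.

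Several complex IV subunits and cytochrome c have paralogs that other tissues, such as heart, muscle, lung or testis, use in their place. In these samples the members were far above their paralogs. In WT, *Cox4i1* was 216 times *Cox4i2* in CPM per kb, *Cox6a1* 84.4 times *Cox6a2*, *Cox6b1* 390 times *Cox6b2*, *Cox7a2* 53.6 times *Cox7a1* and *Cox7b* 87.8 times *Cox7b2*. Over the 8 single samples the ratio for *Cox4i1* lay between 143 and 288 and that for *Cox6a1* between 40.6 and 229. Their paralogs had 23 to 42 counts per sample (*Cox4i2*) and 20 to 129 (*Cox6a2*). What set the spread of the ratios was not tested. *Cox8b* had 6 counts in all 8 samples together, *Cyct*, the testis form of cytochrome c, 5, and *Cox8c* 0. Of the 5 paralogs tested, 0 passed the test between genotypes, from -0.58 for *Cox7a1* to 0.42 for *Cox6a2*.

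Nuclear respiratory genes are known targets of NRF1 and of GABP, an ETS factor, and their promoters were read for the motifs of these factors. RefSeq promoters on GRCm38.p6, from 250 bases before to 50 bases after the start, were found for 19 of the 26 nuclear members. The NRF1 motif (GCGCA, any base, GCGC, on either strand) was in 4 of the 19, or 21.1%, against 4.6% of all 32851 promoters of the table. Those were *Cox6a1*, *Sdha*, *Sdhd* and *Uqcrc1*. The ETS motif CCGGAAG was in 7 of 19, or 36.8%, against 8.86%, namely in *Cox6a1*, *Cox6b1*, *Cox8a*, *Sdhb*, *Sdhd*, *Uqcr11* and *Uqcrh*. The motif read for YY1 (AANATGGC) was in 1 of 19, or 5.3%, against 6.05%. None of these motifs holds the letters of another. A match describes letters and is not a binding site, and genes with matches were spread over the range of fold changes, from *Sdhd* at 0.01 to *Cox6b1* at -0.22. For each of a pair of complex II genes and a complex IV gene, the site farthest before the start is shown (*Sdha* also held sites 55 and 10 bases before it, and *Cox6a1* a site 117 bases before it), with the motif in capitals and distances counted from the RefSeq start of transcription.
Sdha, 98 bases before the start, chr13:74350319-74350348, minus strand: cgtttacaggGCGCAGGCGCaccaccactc
Sdhd, 79 bases before the start, chr9:50603909-50603938, minus strand: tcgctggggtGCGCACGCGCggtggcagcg
Cox6a1, 162 bases before the start, chr5:115349101-115349130, minus strand: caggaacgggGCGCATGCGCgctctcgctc
*Nrf1* and *Gabpa*, which encode the factor NRF1 and the DNA-binding part of GABP, were at 21.6 and 39.8 CPM in WT and had log2 fold changes of -0.00 and 0.05, neither of which passed.

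The cell type marker lists that were read beside these values had 0 genes past the test. Interneuron markers had a median log2 fold change of -0.34 over 6 genes, with *Sst* at -0.52 (edgeR, adjusted p = 0.969), and WT replicate 4 held their highest sum. Oligodendrocyte markers had a median of 0.67 with a median SE of 0.405. The medians were -0.13 for excitatory neurons, -0.12 for astrocytes, -0.10 for microglia, -0.08 for endothelial cells and -0.11 for striatal neurons. For choroid plexus, red blood cells and muscle they were 0.09, 0.04 and -0.18, with sums of at most 9.27, 57.1 and 12.5 CPM in any sample.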

How the data were processed

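The authors made the libraries from 200 ng of total RNA with an integrity number of at least 8, trimmed the single-end reads with cutadapt 1.10, removed ribosomal reads with Bowtie2 2.2.8, mapped the rest to mm10 with STAR 2.5.3a and counted them per Ensembl gene with HTSeq 0.6.1p1. The table the authors deposited holds raw counts without normalization, and its 8 columns were matched to samples by their titles. Symbols, exons and transcripts came from GENCODE vM21 (GRCm38), which held 53274 of 53379 identifiers, and promoters from RefSeq. The authors counted with another annotation release, so exonic lengths and copies can differ from the gene models that were counted.

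Counts were fitted in R 4.3.3 with edgeR 4.0.16 (filterByExpr with minimum count 10 and minimum total 15, TMM factors, robust quasi-likelihood fit, genotype as the only term), with Benjamini-Hochberg adjustment over 16914 genes and a threshold of 0.05. The script was tested on simulated counts. DESeq2 1.42.0, other scalings, filters, a replicate block and fits without each sample were alternatives. Pairs of samples of a genotype differed by a chi-square per gene of 7 to 95.6, so none was counted as a repeat. Stretches of 50 bases, gapless alignments and motifs were read with Python 3.11.15 and pandas 2.3.3. Depth, 28456504 counts or more per sample, leaves counting error small except where a gene has few counts.

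All 32 members were named, together with *Mvp*, the lowest and highest gene of each other list and the paralogs by level, and values per sample are given for the lowest p of each complex and every mitochondrial member. Members and lists were chosen with earlier results of these data known. The nuclear regulators *Nrf1* and *Gabpa*, the markers *Slc17a7* and *Camk2a*, the interneuron markers, and the copies of members were named outside this rule, after values had been seen. The planned mean over 6 mitochondrial members was taken over the 2 with counts.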

Additional observations from a re-analysis of the deposited data

Results flagged for a closer look

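Among 64 groups of 4 samples examined (each counted member, *Mvp* and the 3 summary values, per genotype), 4 held a sample far from the others, with the gap divided by the range above Dixon's critical value. Chance flags about 1 in 20 groups, or 3.2 of these 64. *Sdha* in WT gave 0.909, with WT replicate 4 at 603 CPM against 471 to 483 CPM. *Uqcrc2* in Mvp KO gave 0.852, with Mvp KO replicate 4 at 205 CPM against 222 to 225 CPM. The mitochondrial minus nuclear mean in WT gave 0.83, with WT replicate 1 at 6.90 against 6.69 to 6.73. *Mvp* in Mvp KO gave 0.903, with Mvp KO replicate 3 at 2.13 CPM against 1.44 to 1.51 CPM.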

How the results depend on the processing

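No member was called under any alternative, with a lowest adjusted p between 0.846 and 1.0 in edgeR's fits and DESeq2's Wald test, and 0 in DESeq2's fits without each sample, which were added after seeing the data. In fits that each left out a sample, calls stayed at 0, the nuclear median lay between -0.134 and -0.061, the mitochondrial median between -0.197 and -0.122, and the difference of the mitochondrial minus nuclear mean between -0.116 and 0.009, above 0 without Mvp KO replicate 1. With all 6 mitochondrial members, an alternative added after seeing the data, that difference was 0.035, since 4 members at or near 0 counts enter as constants.

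The replicate block gave 0 calls, with a nuclear median of -0.089 and a mitochondrial median of -0.162. Samples with the same number shared only that number (correlations of their deviations of 0.0548, 0.287, -0.00671 and 0.0507). The block and the Wald test give no separate value of the mitochondrial minus nuclear mean. The median level of nuclear members was 104 in place of 62.2 CPM per kb with the stretches of 1 transcript, or only its unshared stretches, as length, both added after seeing the data.

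Of 28 single members, 8 changed sign in some fit without a sample, none past the test. Their lowest and highest values over these 8 fits were -0.133 and 0.034 for *Sdhb*, -0.023 and 0.056 for *Sdhd*, -0.088 and 0.029 for *Uqcrb*, -0.082 and 0.018 for *Uqcrc1*, -0.066 and 0.008 for *Uqcrfs1*, -0.051 and 0.119 for *Cycs*, -0.098 and 0.041 for *Cox6c*, and -0.096 and 0.034 for *Cox7a2l*. *Cox7c* had the fewest counts of the counted members, at 110 to 198 per sample, so counting error weighs most there. *mt-Co2*, *mt-Co3*, *mt-Atp6* and *mt-Atp8* give no comparison.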
